A study of Mus musculus with 6 samples.

Results

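The 42 genes described here encode ligands, receptors and antagonists of the transforming growth factor-β (TGF-β) and bone morphogenetic protein (BMP) pathways. They were taken by name from the 55341 gene symbols of the GENCODE annotation of GRCm38, and the rule uses no measured value. The list was, however, chosen with earlier results of these data known. They comprised 13 TGF-β, activin and related ligands, 14 BMP and GDF ligands, 5 secreted antagonists, 8 receptors and 2 inhibitory Smads. The promoter of a gene was the 1000 bp on each side of all of its transcript starts. A promoter was called active under an H3K4me3 peak alone, repressed under an H3K27me3 peak alone, bivalent under peaks of both marks, and unmarked under neither, and an overlap of 1 bp was enough.

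Ligands of this family are secreted as dimers and bind pairs of type II and type I receptor kinases, which phosphorylate Smad transcription factors. Secreted antagonists such as noggin trap the ligands outside the cell, and the inhibitory Smads limit the signal inside it. In the colon, BMP signaling is weak at the crypt base, where stem cells reside and stromal cells secrete antagonists, and strong toward the surface, while TGF-β and activin restrain epithelial growth. H3K4me3, trimethylated lysine on histone H3, marks promoters in use, H3K27me3 is deposited by Polycomb repressive complex 2 at silenced genes, and promoters with both marks are called bivalent.

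The libraries came from colonic organoids, cultures of colon epithelium without stroma, of wild-type C57BL/6 mice. Organoids were left without the cytokine (wt) or were treated for 3 weeks with TNFα at 40 ng/ml (wt+TNFα). Each condition gave 1 library per mark and 1 input. All organoids shared a medium that already acts on these pathways, since its conditioned part supplies noggin and it contains A83-01, an inhibitor of the TGF-β and activin type I receptors. Since each mark has 1 library in each condition, the differences below have no replicate check, and no error or p-value can be given. The peak lists show where a mark was called, and RNA was not analysed here, so a state is not a measure of expression.

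The lists differed in size between the conditions. The H3K27me3 list held 30594 peaks in wt and 60540 in wt+TNFα, and took up 101 Mb and 228 Mb of the autosomes, against 17.8 Mb and 19.5 Mb for H3K4me3. The lists also stood apart on the sex chromosomes, where 0 of the 42 genes lie. H3K27me3 took up 0.597 Mb of chromosome X without TNFα and 74.7 Mb with it, and on chromosome Y the wt H3K4me3 list had 3 peaks where that of wt+TNFα had 0. Differences between the cultures and effects of TNFα cannot be told apart. The wt+TNFα H3K27me3 list is also the only one of the 4 whose name does not mention a spike-in, and whether any list was scaled to one is not given in the sources used here. The strength of a peak is given as its fold enrichment over local background, which was computed for each library on its own and is therefore read by its rank within the list, and as −log10 of its q-value. The weakest H3K4me3 peak had a −log10 q of 7.0 in wt and 6.95 in wt+TNFα, against 0.302 and 0.747 for H3K27me3. Of the H3K27me3 peaks, 87.2% in wt and 80.5% in wt+TNFα had a −log10 q under 2. The reporting summary of the study gives a q-value threshold for H3K27me3 that corresponds to a −log10 q of 2. All 10 epithelial markers, among them Epcam and Cdx2, were active in both conditions. H3K4me3 was called at the promoter of none of the 8 fibroblast and muscle, 4 endothelial and 6 immune markers in either condition.

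In untreated organoids, 23 of the 42 promoters were under H3K27me3. The plot of promoter states shows the 42 genes beside the 20780 autosomal protein-coding genes. In wt, 16 of the 42 (38.1%) were repressed, against 16.9% of the protein-coding genes, and 7 (16.7%) were bivalent, against 5.4%. The active genes numbered 10 (23.8%), against 46.4%, and the unmarked 9 (21.4%), against 31.3%. In wt+TNFα, 19 (45.2%) were repressed, against 20.8%, and 8 (19%) bivalent, against 6.72%. The active genes then numbered 12 (28.6%), against 45.8%, and the unmarked 3 (7.14%), against 26.7%.

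**Figure D1:**
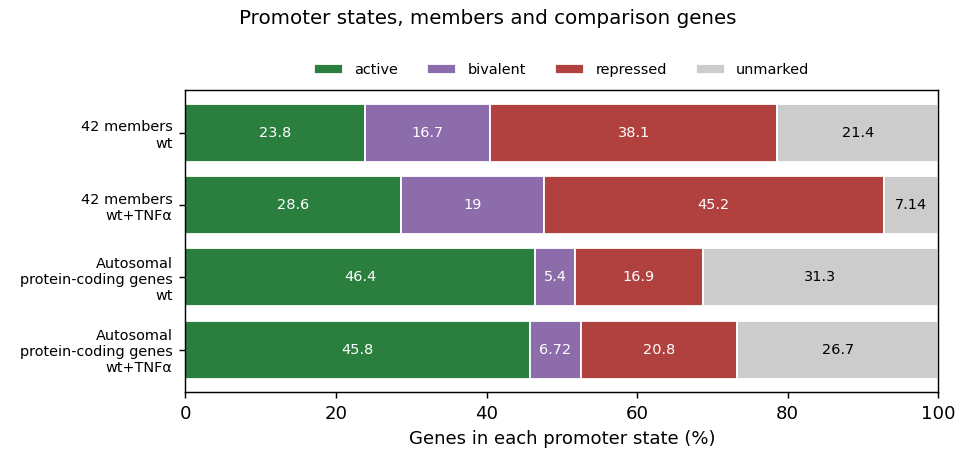
Share of genes (%) in each promoter state, with 1 bar for each condition, for the 42 TGF-β and BMP genes and for the autosomal protein-coding genes. In both conditions the repressed and bivalent segments are longer in the 42 genes (38.1% and 16.7% in wt) than in the protein-coding genes (16.9% and 5.4%), and each bar rests on 1 library per mark.

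By role, 5 of the 8 receptors (62.5%), 1 of the 14 BMP and GDF ligands (7.14%) and 0 of the 5 antagonists were active in wt, beside the 46.4% of all protein-coding genes, and differences between these small groups were not tested. The state differed between the conditions at 11 of the 42 genes (26.2%), against 9.71% of the protein-coding genes. H3K27me3 was called in wt+TNFα alone at 5 (11.9%), against 6.48%, and in wt alone at 1 (2.38%), against 1.28%. H3K4me3 was called in wt+TNFα alone at 4 (9.52%), against 1.5%, and in wt alone at 1 (2.38%), against 0.741%. Per the reporting summary of the study, the H3K4me3 library and the input of wt+TNFα were read more deeply than those of wt. The H3K27me3 libraries had nearly equal depth there. The part of depth in these counts was not tested. These are counts in 1 pair of libraries per mark, and several of the differences rest on weak peaks, as given with each gene. With only peaks above the median −log10 q of each list, 5 members (11.9%) differed in state, against 12.3% of the protein-coding genes, so the share of the members no longer exceeded that of other genes. With these peaks 0 members had H3K4me3 in wt+TNFα alone, against 3.26%. When the H3K27me3 lists were reduced to equal covered length, H3K27me3 was in wt+TNFα alone at 1 member (2.38%), against 1.25%, and in wt alone at 3 (7.14%), against 5.16%. The state then differed at 9 members (21.4%), against 8.33%.

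**Figure D2:**
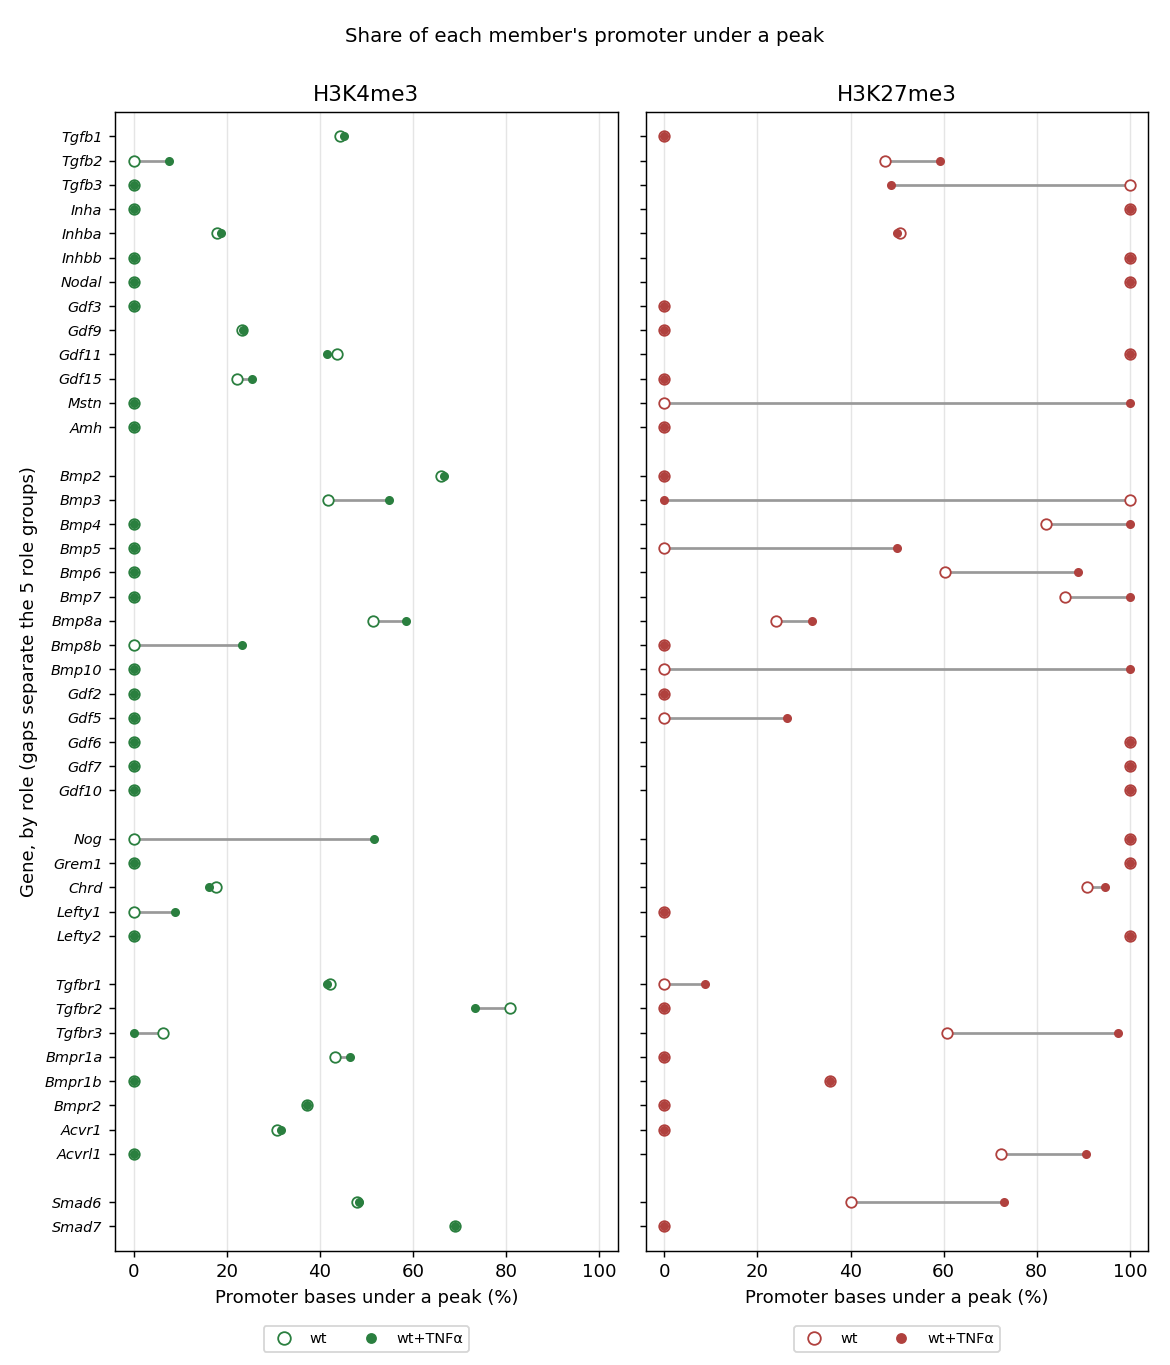
Share of promoter bases under a peak (%) for each of the 42 genes, ordered by role, for H3K4me3 on the left and H3K27me3 on the right. Open circles are wt and filled circles wt+TNFα, joined by a line. H3K4me3 shares moved little except at Nog (0% to 51.5%), Bmp8b (0% to 23.2%) and Bmp3 (41.8% to 54.9%), while H3K27me3 shares moved in both directions, from 100% to 0% at Bmp3 and from 0% to 100% at Mstn and Bmp10.

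The 250 bases before the RefSeq start of 5 genes are printed as examples of the courses that the marks took, with CG dinucleotides, which are dense in CpG islands, in capitals. RefSeq windows on GRCm38.p6 were found for 27 of the 42 genes, too few to compare CpG content across the group. Over 32851 windows of this length, the median was 6 CG dinucleotides. Gdf11, bivalent in both conditions, had 33 in chr10:128891719-128891968 on the minus strand. Bmp8b, which had H3K4me3 in wt+TNFα alone, had 17 in chr4:123104911-123105160 on the plus strand. Tgfb2, under H3K27me3 in both conditions, had 8 in chr1:186705990-186706239 on the minus strand. Bmp10 had 3 in chr6:87428744-87428993 and Mstn 3 in chr1:53061390-53061639, both on the plus strand, and both came under an H3K27me3 peak in wt+TNFα alone.
Gdf11: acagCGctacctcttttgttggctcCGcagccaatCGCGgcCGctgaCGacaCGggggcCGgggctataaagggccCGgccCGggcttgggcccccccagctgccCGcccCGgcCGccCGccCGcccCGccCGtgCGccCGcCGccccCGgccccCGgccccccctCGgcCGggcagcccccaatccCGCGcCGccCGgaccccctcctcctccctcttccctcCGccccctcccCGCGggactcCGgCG
Bmp8b: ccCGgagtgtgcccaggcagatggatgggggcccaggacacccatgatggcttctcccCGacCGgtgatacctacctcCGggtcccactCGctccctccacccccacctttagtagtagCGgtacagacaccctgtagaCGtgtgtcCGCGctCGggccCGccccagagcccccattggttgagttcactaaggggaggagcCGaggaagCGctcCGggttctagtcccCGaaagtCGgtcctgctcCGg
Tgfb2: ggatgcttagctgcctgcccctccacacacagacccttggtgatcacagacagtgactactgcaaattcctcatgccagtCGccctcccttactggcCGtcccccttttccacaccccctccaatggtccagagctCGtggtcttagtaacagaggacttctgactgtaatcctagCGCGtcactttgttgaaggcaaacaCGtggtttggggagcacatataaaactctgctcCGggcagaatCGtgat
Bmp10: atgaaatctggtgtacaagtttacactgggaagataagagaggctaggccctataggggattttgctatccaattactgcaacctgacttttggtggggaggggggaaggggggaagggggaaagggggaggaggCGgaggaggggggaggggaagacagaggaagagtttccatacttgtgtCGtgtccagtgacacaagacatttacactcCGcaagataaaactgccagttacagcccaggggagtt
Mstn: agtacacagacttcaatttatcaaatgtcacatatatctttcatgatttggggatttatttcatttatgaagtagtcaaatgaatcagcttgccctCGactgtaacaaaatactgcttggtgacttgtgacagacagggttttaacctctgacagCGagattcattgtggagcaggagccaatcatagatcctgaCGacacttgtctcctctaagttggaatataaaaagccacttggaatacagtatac
Of the Gdf11 stretch, 100% lay under H3K4me3 in wt and 97.6% in wt+TNFα, and 100% under H3K27me3 in both. The Bmp8b stretch lay entirely under the wt+TNFα H3K4me3 peak and under no other. A window poor in CG dinucleotides could still carry H3K27me3 in both conditions, as at Nodal, whose 250 bases held 3.

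Among the 3 TGF-β genes, which encode the ligands that bind the type II receptor Tgfbr2, the marks differed. Tgfb1 was active in both conditions, with 44.3% and 45.1% of its promoter bases under H3K4me3. The fold enrichment of the peak over background was 16.5 without TNFα and 22.2 with it. The peak measured 2627 bp and 2675 bp and covered 4 of its 5 starts. Tgfb3, in contrast, had H3K27me3 alone, over 100% of its promoter in wt and 48.8% in wt+TNFα. The wt peak spanned the start and the wt+TNFα peak began 25 bp inside the gene. The −log10 q of these 2 peaks was 1.66 and 1.63, and their fold enrichments exceeded 83.2% of the wt list and 62.2% of the wt+TNFα list.

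Tgfb2 (chr1:186622792-186705989, minus strand) was repressed in wt and bivalent in wt+TNFα. The H3K27me3 peak over its first start measured 5253 bp and 9363 bp in the 2 conditions. Its fold enrichments of 3.31 and 2.78 ranked above 96.4% and 96.1% of their lists. The new H3K4me3 peak was small, 583 bp wide, and lay wholly in exon sequence from 289 bp inside the gene. Its fold enrichment of 5.88 exceeded that of 3.46% of the peaks in the wt+TNFα list, and its −log10 q was 17.6. The gene model Gm29491 also starts under this peak. In wt the nearest H3K4me3 peak to the Tgfb2 start lay 42421 bp away.

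The activin and inhibin subunits were under H3K27me3. Inha, the inhibin α subunit, and Inhbb, the activin βB subunit, were repressed in both conditions with 100% of their promoters covered. Inha had the highest wt H3K27me3 fold enrichment of the TGF-β, activin and related ligands, 4.20, above 99.7% of that list. In wt+TNFα its peak had a fold enrichment of 2.80, above 96.2% of that list, and had widened from 6325 bp to 29698 bp. The start of the neighbouring gene Obsl1 lay under the Inha peak in both conditions. Inhbb lay within the widest wt peak of the group, 53580 bp, and within 64200 bp in wt+TNFα.

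Inhba, the activin βA subunit, was bivalent in both conditions, and its H3K4me3 was weak, with fold enrichments of 7.02 and 5.82. These peaks ranked above 7.56% and 3.38% of their lists and began 150 bp and 119 bp inside the gene. H3K27me3 was called in wt at 2 places, upstream of the start over 1466 bp with a −log10 q of 0.486 and inside the gene over 5041 bp with a −log10 q of 1.67. In wt+TNFα the upstream peak was not called, and the peak inside the gene measured 7375 bp with a −log10 q of 5.48. The marks overlapped each other at 0 bases of the Inhba promoters. The bivalent call at this gene therefore joins separate stretches, and the state of Inhba depended on the setting. At its first start alone it was bivalent in wt and active in wt+TNFα, and with H3K27me3 peaks of −log10 q of at least 2 it was active in wt and bivalent in wt+TNFα.

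The remaining genes of this group covered all 4 states. Nodal, a ligand of the early embryo, was repressed in both conditions under peaks of 6747 bp and 19021 bp. Gdf11 was bivalent in both, and the marks overlapped over 872 bp in wt and 829 bp in wt+TNFα, the whole width of its H3K4me3 peak. Gdf3, another embryonic ligand, and Amh, the anti-Müllerian hormone, were unmarked in both. Amh had H3K27me3 nearby, 1690 bp from its start in wt and 1557 bp in wt+TNFα.

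Gdf9 and Gdf15 were called active, with limits that the peak positions show. Gdf9, an oocyte ligand, had the highest wt H3K4me3 fold enrichment of the TGF-β, activin and related ligands, 28.6, and 37.6 in wt+TNFα. That peak lay over the start of Uqcrq, a subunit gene of the respiratory chain, and reached 0 bases of Gdf9 in wt and 1 in wt+TNFα, and the start of the protein-coding Gdf9 transcript was unmarked. Gdf15, a stress-induced ligand, had H3K4me3 at fold enrichments of 17.9 and 18.0, beginning 838 bp and 762 bp inside the gene. The peak covered 62.6% of the gene in wt and 67.0% in wt+TNFα and did not reach either annotated start.

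Mstn (chr1:53061640-53068079, plus strand), which encodes myostatin, the inhibitor of muscle growth, was unmarked in wt and repressed in wt+TNFα. The H3K27me3 share of its promoters went from 0% to 100% under a 6167-bp peak (fold enrichment 1.88, −log10 q 1.24). That fold enrichment exceeded 44.9% of the wt+TNFα list, so the peak stood near the middle of a list of 60540.

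Of the 14 BMP and GDF ligands, Bmp2 alone was active in wt. Bmp2, made by differentiated epithelium, had 66.1% and 66.6% of its promoter under H3K4me3, at fold enrichments of 39.2 and 31.0, and no H3K27me3. Its peaks of 3406 bp and 3459 bp covered 28.7% and 29.2% of the gene. At the other end of the range, Gdf7 had the highest wt H3K27me3 fold enrichment of all 42 genes, 4.31, and 4.83 in wt+TNFα, above 99.7% and 99.9% of the lists. Its promoter was covered over 100% in both conditions.

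Bmp3 (chr5:98854415-98884396, plus strand), an atypical BMP known to oppose the signal of other BMPs, was bivalent in wt and active in wt+TNFα. It was the only member with H3K27me3 in wt alone. In wt a 6595-bp stretch of H3K27me3 (fold enrichment 3.50, −log10 q 6.05) covered 100% of its promoters and all 3 starts. In wt+TNFα the share was 0% and the nearest H3K27me3 peak lay 23056 bp from the start, although that list covered more of the genome. The H3K4me3 peak widened from 851 bp to 1660 bp, and its fold enrichment went from 11.1 to 25.4, which moved it from above 17.6% to above 46.2% of its list. In wt this peak began 154 bp inside the gene, and in wt+TNFα it covered all 3 starts.

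Bmp8b (chr4:123105165-123132099, plus strand) was unmarked in wt and active in wt+TNFα. Its H3K4me3 peak in wt+TNFα measured 929 bp across the first start, 475 bp outside the gene and 454 bp in exon sequence, with a fold enrichment of 12.6 and a −log10 q of 64.7. In wt the nearest H3K4me3 peak lay 33820 bp away, and H3K27me3 lay 5884 bp away. The close paralog Bmp8a, on the same chromosome, already carried H3K4me3 in wt, with fold enrichments of 20.8 and 22.1 and shares of 51.5% and 58.4%. How reads shared by the 2 genes were placed was not tested. Bmp8a also had H3K27me3 in both conditions, but at a −log10 q of 0.897 and 1.08, and was called bivalent for that reason.

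A further 3 ligands, Bmp5, Bmp10 and Gdf5, came under H3K27me3 in wt+TNFα alone. Bmp5 (chr9:75775364-75900310, plus strand) had a 3982-bp peak over its first start (fold enrichment 2.02, −log10 q 1.74), which covered 100% of the promoter at that start and 0% at the second start. Bmp10 (chr6:87428994-87437677, plus strand), a heart ligand, lay in a 52583-bp peak (fold enrichment 2.15, −log10 q 2.31) that also held the start of Arhgap25. In wt, H3K27me3 came to 1228 bp from the Bmp10 start and covered 9.35% of the gene, against 100% in wt+TNFα. Gdf5 (chr2:155941023-155945367, minus strand), a joint ligand, had a peak of 865 bp from 472 bp inside the gene that covered 26.4% of its promoter. The −log10 q of the Gdf5 peak was 0.874. The fold enrichment exceeded 11.6% of the list at Gdf5, 73.4% at Bmp5 and 85.7% at Bmp10.

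The other BMP and GDF ligands under H3K27me3 were so in both conditions. Bmp4, a ligand of the stroma in the gut, and Bmp7 had shares of 82.0% and 86.1% in wt, and 100% in wt+TNFα. Bmp6 went from 60.4% to 88.8%, through a second peak of 7969 bp at a start 49338 bp inside the gene, while its first start was under H3K27me3 in both conditions. Gdf6 and Gdf10 were covered over 100% throughout. Gdf2, also called BMP9 and made in liver, was unmarked in both conditions, and the nearest H3K27me3 lay 8212 bp and 4831 bp from its start.

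Of the 5 antagonists, Nog and Lefty1 had H3K4me3 in wt+TNFα alone, beside 1.5% of the protein-coding genes, and this small group was not tested. Nog (chr11:89300638-89302332, minus strand) encodes noggin, the BMP trap that stem cell media supply. It was repressed in wt and bivalent in wt+TNFα. H3K27me3 covered 100% of its promoter in both conditions, in peaks of 12862 bp and 36823 bp. Their fold enrichments of 3.77 and 3.30 ranked above 98.7% and 98.0% of the lists. The wt peak was the strongest H3K27me3 of the antagonists. H3K4me3 was called in wt+TNFα alone, over 51.5% of the promoter, in a 1031-bp peak across the start (fold enrichment 7.30, −log10 q 21.0). This was the largest H3K4me3 share change of the 42 genes and the only rise of 25 points or more (1 of 42, 2.38%, against 0.722% of the protein-coding genes). The peak was nevertheless low in its list, above 7.72% of the others, all of its 1031 bp lay inside the H3K27me3 peak, and in wt the nearest H3K4me3 peak lay 241399 bp away. The gene model Gm2018 starts under it as well. In bulk cultures, marks on the same promoter copies and marks in different cells cannot be told apart.

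Lefty1 (chr1:180935022-180938400, plus strand), an inhibitor of Nodal, was unmarked in wt and was called active in wt+TNFα through a 342-bp peak (fold enrichment 6.93, −log10 q 19.1). That peak lay 1427 bp inside the gene, near the start of a retained-intron transcript at 1849 bp, and the start of the protein-coding transcript was unmarked in both conditions. Lefty2, its neighbour on the chromosome, was repressed in both. Chrd, which encodes chordin, was bivalent in both and had the only antagonist H3K4me3 in wt, at a fold enrichment of 8.75, against 6.65 in wt+TNFα. H3K27me3 lay over 90.8% and 94.7% of the Chrd promoters. Grem1, the stromal antagonist gremlin 1, was repressed in both conditions under peaks of 7373 bp and 10541 bp.

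**Figure D3:**
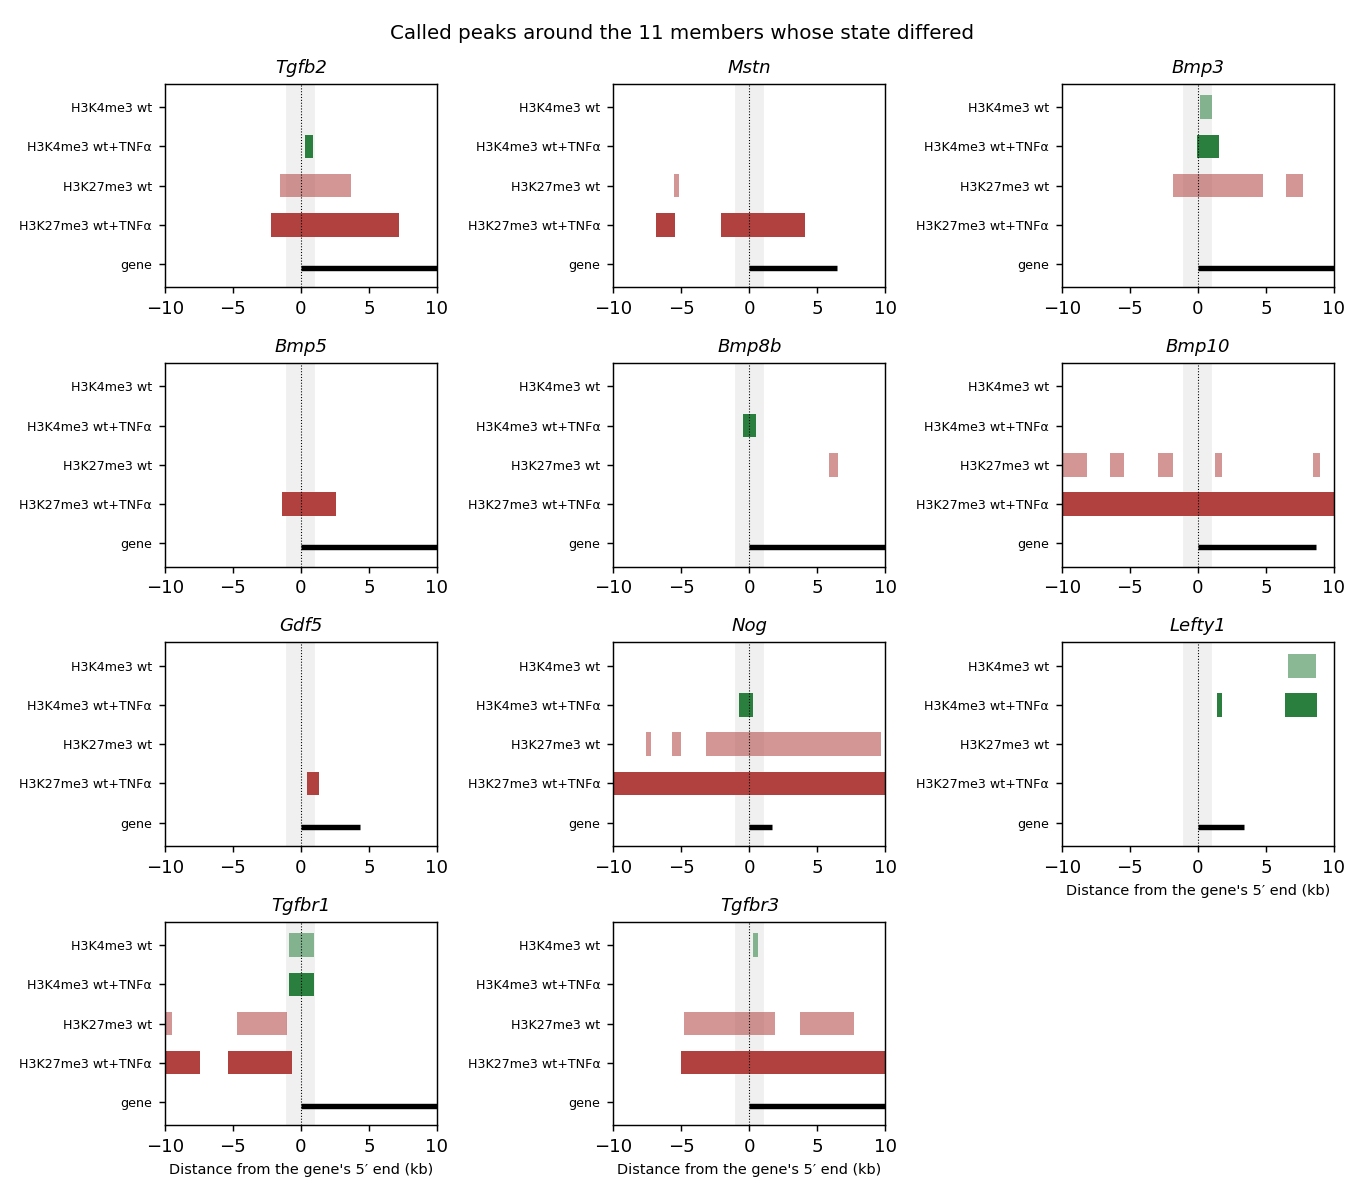
Called peaks within 10 kb of the 5′ end of the 11 genes whose state differed, by distance from that end (kb, positive into the gene), with H3K4me3 in green, H3K27me3 in red and paler bars for wt. The black line is the gene and the grey band the promoter at its 5′ end. At Bmp3 the wt H3K27me3 bar has no wt+TNFα counterpart, at Nog a 1031-bp H3K4me3 bar appears within H3K27me3, and at Tgfbr1 the edge of an upstream H3K27me3 peak moves from 1051 bp to 622 bp from the start.

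The receptors included some of the strongest H3K4me3 peaks of the group. Bmpr2, the BMP type II receptor, had the highest wt fold enrichment of the receptors, 41.9, and 45.3 in wt+TNFα, with 37.2% of its promoters covered in both conditions. Bmpr1a and Acvr1, type I receptors for BMPs, were also active throughout. Their H3K4me3 fold enrichments were 38.3 and 39.2 without TNFα, and 47.9 and 39.1 with it. Tgfbr2 was active in both with a share of 80.9% in wt, the highest H3K4me3 share of the 42 genes, and 73.2% in wt+TNFα. At these 4 receptors the nearest H3K27me3 peak to the 5′ end lay at least 31225 bp away in either condition.

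Tgfbr1 (chr4:47353222-47414931, plus strand), the TGF-β type I receptor, was active in wt and bivalent in wt+TNFα by a narrow margin. Its H3K4me3 hardly moved, with shares of 42.2% and 41.6% and fold enrichments of 36.5 and 31.1. The H3K27me3 peak upstream ended 1051 bp from the start in wt and 622 bp in wt+TNFα, which put 8.63% of the promoters under it. The wt+TNFα peak measured 4701 bp (fold enrichment 2.49, −log10 q 3.66), and all of it lay outside the gene.

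Tgfbr3 (chr5:107106570-107289629, minus strand), which encodes the co-receptor betaglycan, was bivalent in wt and repressed in wt+TNFα. It was the only member with H3K4me3 in wt alone, and that peak was small, 374 bp wide at a fold enrichment of 6.21, above 4.67% of its list. Its wt H3K27me3 was the strongest of the receptors, with a fold enrichment of 3.65, against 3.34 in wt+TNFα, each above 98.2% of its list. Over the 5′ end the H3K27me3 peak measured 6735 bp in wt and 15650 bp in wt+TNFα. The share over all Tgfbr3 promoters went from 60.6% to 97.4%, through peaks of 1844 bp and 71674 bp at starts far inside the gene. The remaining receptors were repressed in both conditions, Bmpr1b with 35.5% covered in each and Acvrl1, the endothelial receptor ALK1, with 72.3% and 90.5%.

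The 2 inhibitory Smads differed from each other. Smad7 had the highest wt H3K4me3 fold enrichment of all 42 genes, 43.3, and 47.0 in wt+TNFα. Its peaks of 5583 bp and 6337 bp were also the widest H3K4me3 peaks of the group, and no H3K27me3 was called at its promoters. Smad6 was bivalent in both conditions. The H3K27me3 share of the Smad6 promoters went from 40.1% to 73.0%, the fold enrichment from 2.93 to 4.89, and the −log10 q from 3.66 to 22.3. At 4.89 this was the highest wt+TNFα H3K27me3 fold enrichment of the 42 genes. The edge of the peak moved from 665 bp to 86 bp inside the gene, and the bases under both marks from 363 to 942, while H3K4me3 covered 47.9% and 48.4% and its fold enrichment went from 17.6 to 13.3. H3K27me3 covered 6.75% of the Smad6 gene in wt and 65.3% in wt+TNFα.

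The strength of the marks was set beside that at protein-coding genes with the same mark or state. The strongest promoter H3K27me3 peak ranked at a median above 95.2% of the wt list at the 23 members that had one, against 91.3% at the 4638 protein-coding genes that had one. In wt+TNFα the medians were 97.0% at 27 members and 94.2% at 5719 protein-coding genes. H3K4me3 at the 7 bivalent members ranked at a median above 17.6% of the wt list and at the 10 active members above 79.3%, against 23.7% and 61.7% at the bivalent and active protein-coding genes. In wt+TNFα the medians were 14.4% at the 8 bivalent and 58.1% at the 12 active members, against 25.4% and 63.1%. The groups held other members in the 2 conditions, so the medians do not follow the same genes. Bmp3, Bmp8b and Lefty1 joined the active members, and Tgfbr1 went from active to bivalent. Tgfb2 and Nog joined the bivalent members, and Bmp3 and Tgfbr3 left them. All these medians are descriptions over genes of 1 library each.

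**Figure D4:**
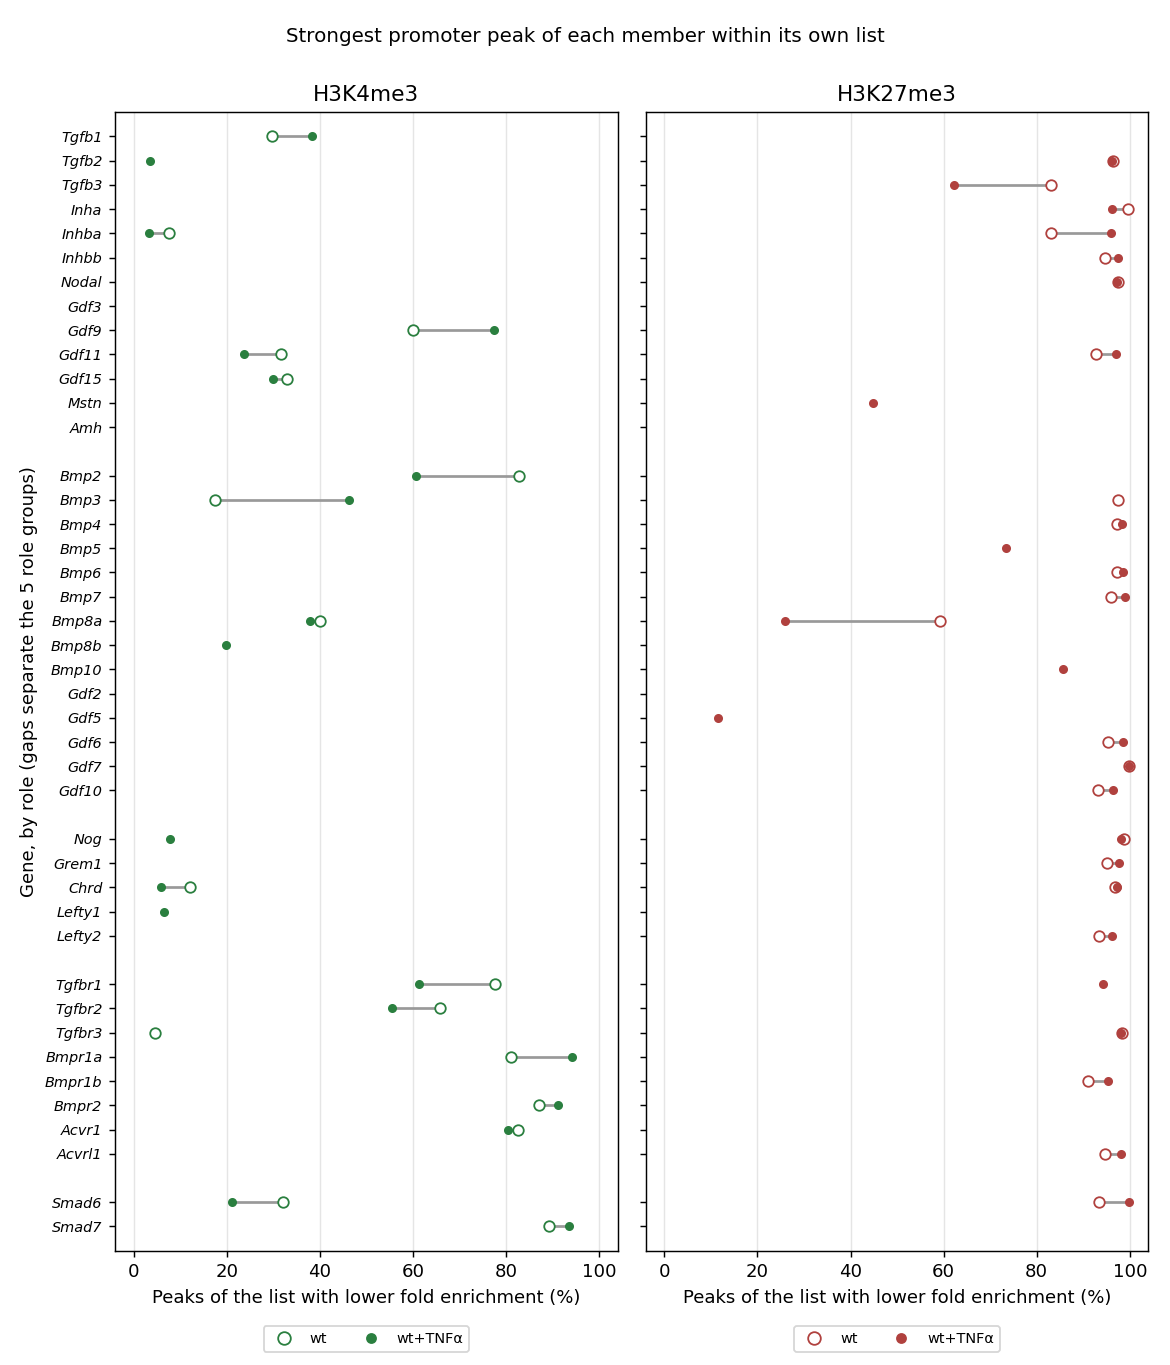
Rank of the strongest promoter peak of each of the 42 genes, as the percentage of peaks in the same list with a lower fold enrichment, with open circles for wt and filled circles for wt+TNFα. Most H3K27me3 points lie above 90%, apart from those of Tgfb3 and Bmp8a, that of Inhba in wt, and those of Mstn, Bmp5, Bmp10 and Gdf5, which appear in wt+TNFα alone. The H3K4me3 peaks of wt+TNFα alone, at Tgfb2, Bmp8b, Nog and Lefty1, lie between 3.46% and 19.7%.

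The H3K27me3 peaks of the family were wider in wt+TNFα, as they were at other genes. At 20 of the 22 members with H3K27me3 in both conditions, the widest promoter peak was wider in wt+TNFα, with a median ratio of 1.70. Of the 4373 protein-coding genes with H3K27me3 in both, 86.6% had a wider peak, with a median ratio of 1.72. The exceptions were Tgfb3 and Bmp8a. The H3K27me3 share was at least 25 points higher at 7 members (16.7%), against 8.57% of the protein-coding genes, namely Mstn, Bmp5, Bmp6, Bmp10, Gdf5, Tgfbr3 and Smad6. It was at least 25 points lower at 2 members (4.76%), Tgfb3 and Bmp3, against 1.21%. H3K4me3 fell by such an amount at 0 members, against 0.231%. At the 16 members with H3K4me3 in both conditions, its share changed by -7.68 to 13.2 points, with a median of 0.498.

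**Figure D5:**
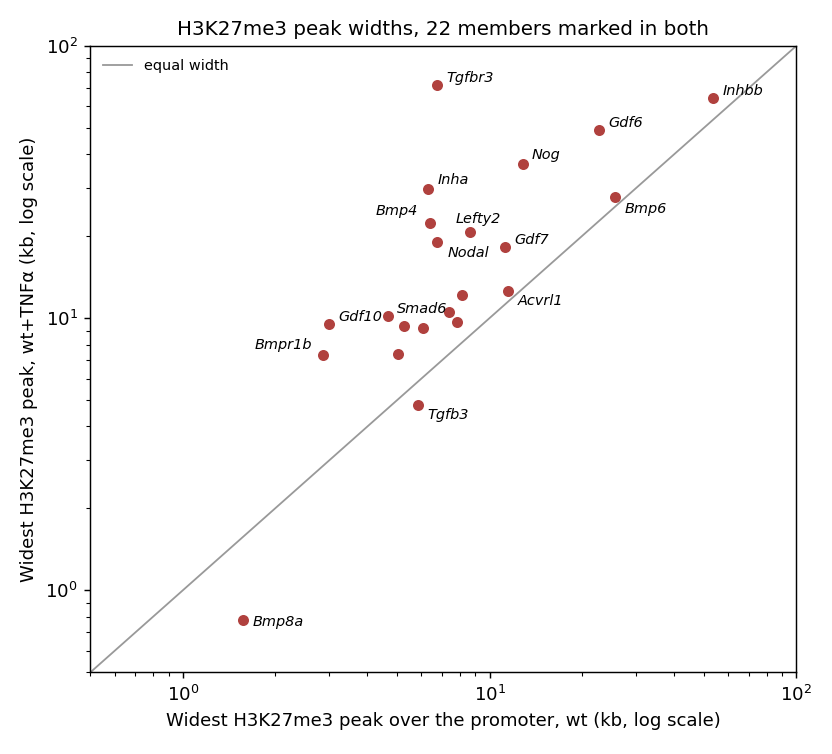
Width of the widest H3K27me3 peak over a promoter in wt and wt+TNFα (kb, both axes on a log scale) for the 22 genes with H3K27me3 in both conditions, with a line of equal width. Of these, 20 lie above the line, and Tgfb3 and Bmp8a below it. The Tgfbr3 point compares 6735 bp at its 5′ end with 71674 bp at a start inside the gene.

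The same states were read at 51 other genes of the pathway. In wt 19 were active, 5 bivalent, 18 repressed and 9 unmarked, and in wt+TNFα the counts were 17, 8, 22 and 4. Of the autosomal protein-coding genes, 46.4%, 5.4%, 16.9% and 31.3% were in these states in wt. In wt+TNFα the shares of those genes were 45.8%, 6.72%, 20.8% and 26.7%. Of the 6 signal-carrying Smads, 5 were active in both conditions, including Smad4, the shared partner, and Smad3, which carries TGF-β and activin signals. Of the protein-coding genes active in wt, 96.0% were also active in wt+TNFα. The activin receptors Acvr1b and Acvr2a were active in both. Acvr1c and Acvr2b went from active to bivalent under H3K27me3 with a −log10 q of 1.28 and 1.18. Of the target genes, Id1, Id2 and Id3, immediate targets of BMP signaling, were active in both conditions, while Id4 and Msx2 were repressed in both with 100% of the promoter under H3K27me3.

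State changes were found at 14 of these 51 genes. On the autosomes they numbered 13 of 49 (26.5%), against 9.71% of the protein-coding genes. With H3K27me3 peaks of −log10 q of at least 2 they numbered 8 (16.3%), against 9.38%, and with equal covered H3K27me3 length 8 (16.3%), against 8.33%. The target gene Ccn2, connective tissue growth factor, took the same course as Bmp3, from bivalent to active, with H3K27me3 over 35.2% and 0% of its promoters and H3K4me3 fold enrichments of 4.97 and 11.8. The −log10 q of the wt H3K27me3 peak at Ccn2 was 1.24. Ltbp1 and Ltbp4, which bind latent TGF-β, and the corepressor Tgif2 went from repressed to bivalent, each through an H3K4me3 peak with a fold enrichment between 6.18 and 6.50. Rgma, a BMP co-receptor, and Msx1, a BMP target, went from bivalent to repressed. Their wt H3K4me3 peaks had fold enrichments of 6.77 and 6.41 and covered 10.4% and 17.5% of the promoters. H3K27me3 covered at least 99.8% of these promoters in both conditions. Smurf1, a ubiquitin ligase for Smads, went from active to bivalent under H3K27me3 with a −log10 q of 1.41. Amhr2, Eng, Inhbc, Fstl3 and, on chromosome X, Bmp15 went from unmarked to repressed. The −log10 q of these H3K27me3 peaks was 2.17 at Amhr2, 1.48 at Eng, 1.53 at Inhbc, 2.76 at Fstl3 and 1.78 at Bmp15. The wt H3K27me3 library had few peaks on that chromosome, so TNFα and library cannot be told apart at Bmp15.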

How the data were processed

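H3K4me3 and H3K27me3 ChIP-seq peak lists of wt and wt+TNFα colonic organoids were analysed, and the inputs were not used here as separate data. Per the paper's methods, the authors used fastp for trimming and bwa-mem (BWA 2.2) for alignment to GRCm38/mm10. Duplicates were removed with SAMtools 1.11, blacklisted regions were filtered, and MACS2 called peaks with the input as control. The submitters' processing notes give MACS2 2.1.0, and the study's reporting summary names another version. The names of 3 of the 4 lists, all but that of wt+TNFα H3K27me3, mention a spike-in, which the methods do not describe. The labels give a nominal depth of 40 M reads for H3K4me3 and input and of 60 M for H3K27me3, and the reporting summary lists other totals for each library. Fold enrichment, as deposited, is the ratio of ChIP signal to local background that the authors computed for each library, and the deposited significance of a peak is its −log10 p and −log10 q.

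Positions were converted to 1-based coordinates and set against promoters of the GENCODE annotation of GRCm38. Because fold enrichments were computed separately for each library, they were ranked within a list. The members and the gene lists were chosen with earlier results of these data known. Genes were described in full where the state differed, where a share differed by 25 points or more, or where the wt fold enrichment of a mark was the highest of a role group. Of the other pathway genes, 1 was matched through an older symbol, and 1 is not reported here. The counts were repeated under 9 other settings fixed at the start and 1 added after seeing the data. State calling was tested on simulated lists. Python 3.11.15, numpy 2.4.6, pandas 2.3.3 and matplotlib 3.10.9 were used.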

Additional observations from a re-analysis of the deposited data

How the results depend on the processing

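The counts of members were recomputed under 9 other settings and under 1 more chosen after seeing the data, the starts of protein-coding transcripts alone. The count of state changes among the 49 other autosomal pathway genes was recomputed after seeing the data. Of 128 recomputed counts, 105 stayed within 1.5 times the reported value. With promoters of 2000 bp on each side, members with H3K27me3 in wt+TNFα alone numbered 3. With the 1000 bp upstream alone, 3 (7.14%) were bivalent in wt, against 4.53%, and 6 (14.3%) were unmarked in wt+TNFα, against 28.6%. At this setting 2 (4.76%) had H3K27me3 in wt alone, against 1.30%, and 0 had H3K4me3 in wt alone, against 0.722%. With 1 start per gene, 2 (4.76%) had H3K27me3 in wt alone, against 1.25%. With only the upper part of each list by −log10 q, above its median, 0 were bivalent in wt, against 0.987%, and 1 (2.38%) in wt+TNFα, against 1.34%. In wt+TNFα 7 (16.7%) were then active, against 31.0%, and 11 (26.2%) unmarked, against 44.8%. The state differed at 5 (11.9%), against 12.3% of the protein-coding genes. H3K27me3 was then in wt+TNFα alone at 3 (7.14%), against 5.79%, and in wt alone at 2 (4.76%), against 1.29%. H3K4me3 was in wt+TNFα alone at 0, against 3.26%, and in wt alone at 0, against 2.31%. With H3K27me3 peaks of −log10 q of at least 2 or with equal covered H3K27me3 length, 8 of the other 49 genes (16.3%) differed in state, against 9.38% and 8.33%. With H3K27me3 peaks of −log10 q of at least 2, 7 members (16.7%) were unmarked in wt+TNFα, against 32.4%. H3K27me3 was then in wt+TNFα alone at 3 (7.14%), near the 6.81% of the protein-coding genes. With equal covered H3K27me3 length on the autosomes, 8 members (19.0%) were unmarked in wt+TNFα, against 33.8%. H3K27me3 was then in wt+TNFα alone at 1 (2.38%), against 1.25%, and in wt alone at 3 (7.14%), against 5.16%. With protein-coding starts alone, 5 (11.9%) were unmarked in wt+TNFα, against 27.5%. A stricter peak filter leaves fewer peaks by construction, and the cause of the other shifts was not tested.

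Nog and Tgfb2 (repressed to bivalent) and Bmp8b (unmarked to active) kept their change under 8 of the 9 settings that give every member a state, the exception being peaks above the median −log10 q. Bmp3 lost H3K27me3 under all 9. Inhba and Bmp8a kept their bivalent state in both conditions under 5. Tgfb3 kept its repressed state in both under 6, and was unmarked in both with H3K27me3 peaks of −log10 q of at least 2. Gdf5 kept its change under 5, Mstn and Lefty1 under 6, and Bmp5, Bmp10, Tgfbr1 and Tgfbr3 under 7. Of 378 recomputed changes in promoter share at the members described in full, 28 crossed the 25-point line, and 2 changes far below it had the other sign with promoters of 2000 bp on each side, H3K4me3 at Smad6 (0.496 to -3.50 points) and at Gdf9 (0.234 to -0.239 points). With 1 library per condition and mark the depth limits what a missing peak shows, and no paired analysis was possible because the labels give no replicates.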

Other observations

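Over the whole length of the gene, H3K27me3 covered a higher share in wt+TNFα at 23 members (54.8%), an equal share at 15 (35.7%) and a lower share at 4 (9.52%), against 26.8%, 69.2% and 4.01% of the protein-coding genes, in a list that took up more of the genome. Genes without H3K27me3 in either list count as equal here. In wt, promoter H3K27me3 was at 23 of the 42 members, against 4638 of the 20780 protein-coding genes. How far this starting point accounts for the difference was not tested. Where promoters had H3K27me3 in both conditions, the median width ratio was 1.70 at members and 1.72 at protein-coding genes. H3K27me3 covered 34.1% of Bmp6 without TNFα and 66.6% with it. The same shares were 23.6% and 60.6% at Gdf10, 8.66% and 25.9% at Tgfb2, and 43.4% and 75.6% at Lefty2. The share was lower at Bmp3 (28.6% and 0%), Bmp8b (9.27% and 0%), Bmp8a (11.3% and 3.85%) and Gdf11 (34.9% and 34.6%).

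Acvrl1 (chr15:101128522-101145336, plus strand), the endothelial receptor, had H3K4me3 at the 3′ end of the gene. The mark covered 6.60% of the gene in wt and 10.6% in wt+TNFα, beginning 15706 bp and 15037 bp from the 5′ end. Whether it belongs to Acvrl1 or to a neighbouring gene was not examined. Of the 10 annotated Acvrl1 starts, 9 in wt and all 10 in wt+TNFα had H3K27me3 alone.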
